A study of Mus musculus with 6 samples.

Results

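Collagens are the triple-helical proteins that make the fibrils, meshworks and anchoring structures of the dermis and of the basement membranes in it. All genes with a symbol of the form Col, number, a, number were taken from the count tables, and the 41 of 44 with at least 20 UMIs (unique molecular identifiers, 1 per captured transcript) over the 3 libraries of CD45-negative skin cells were kept as members. The members were thus chosen by the UMI sums of those libraries, which are given as a description only. Just inside the minimum were Col2a1 and Col9a2, each with 24 UMIs, and Col10a1 with 28. The genes just outside it were Col6a4 with 17 UMIs, Col22a1 with 6 and Col9a1 with 5. Of all collagen UMIs, Col1a1 held 26.7%, Col1a2 21.9%, Col17a1 16.4% and Col3a1 14.6%.

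The skin came from female adult mice, 17 to 18 weeks old and untreated, in 3 groups: wild-type C57BL/6 mice (WT), and UP_Del mice, in which an enhancer upstream of Il2ra is deleted, without or with alopecia (hair loss). Il2ra encodes the alpha chain of the interleukin-2 receptor. The genotype label reads C57/BL6 for every sample, so the deletion is known from the sample titles and the series title. Whole skin without its hypodermis was digested with Liberase, DNase and trypsin, live cells were sorted into CD45-positive and CD45-negative fractions, and each fraction of each group gave 1 library of droplet single-cell 5' RNA sequencing. How many mice a library holds is not given in the sources used here. With 1 library per group and sort, no test of a difference between groups was possible, and every difference below compares libraries, not conditions.

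A collagen molecule is a trimer of alpha chains that are folded and hydroxylated in the endoplasmic reticulum before secretion. Types I, III and V build the fibrils of the dermis, type IV the sheet-like network of basement membranes, type VI beaded microfilaments between these, and type VII the anchoring fibrils that fix the epidermis to the dermis. Type XVII spans the membrane of basal keratinocytes in hemidesmosomes, and the fibril-associated types XII, XIV and XVI sit on the surface of fibrils. The members comprise 11 genes of fibril-forming chains, 6 of basement membrane chains, 5 of beaded filament chains, 1 of the anchoring fibril, 7 of fibril-associated, 4 of transmembrane, 3 of short-chain network and 2 of multiplexin collagens, and 2 others.

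The CD45-negative libraries held 4575, 16751 and 7123 cell barcodes (here and below in the order WT, UP_Del without alopecia, UP_Del with alopecia) and 25735064 to 116334373 UMIs, of which 3293, 14447 and 4817 cells were kept, with median depths of 5007 to 5658 UMIs. A filter on low counts and mitochondrial content removed 26.7%, 7.56% and 30.4% of barcodes, so the library without alopecia stood apart in both size and loss. Pairs of libraries shared 24 to 228 barcodes (0.719% to 2.57% of the smaller library). Cells were clustered without any collagen gene, and 7 classes were named from marker genes that are not collagens: fibroblasts (653, 2202 and 1001 cells), dermal papilla (23, 40 and 57), mural cells of vessel walls (27, 165 and 35), blood endothelium (213, 691 and 294), lymphatic endothelium (81, 353 and 139), glia (42, 158 and 53) and interfollicular basal keratinocytes (130, 2968 and 355). All marker genes of its own class were detected in each library for these classes except 1 of the 7 lymphatic markers in the WT and no-alopecia libraries. A further cluster, number 6 (191, 782 and 237 cells, led by Crabp1, Dkk2, Pappa2, Aspn and Coch), had markers of both dermal papilla and fibroblasts, stayed unnamed and is described beside them. Cluster 20 (44, 131 and 63 cells, led by Apod, Cxcl2 and Cxcl1) also stayed unnamed and is given beside some members.

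Levels are the UMIs of a gene divided by all UMIs of the class, scaled to CPM. Since a transcript gives 1 UMI at its 5' end whatever its length, levels were not divided by gene length, and comparisons between genes are of UMI shares. Intervals are exact 95% Poisson or conditional binomial intervals, which cover counting error only. A member is called higher or lower where the ratio of 2 class sums is at least 1.5-fold, among members with at least 20 UMIs over both sums. A class level under 5% of the highest class of the same library could come from free RNA of broken cells and is not described as expression.

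Fibroblasts gave the largest share of their RNA to collagen genes. In them 2.23%, 3.19% and 2.96% of all UMIs came from members, against 1.05%, 1.12% and 1.16% in dermal papilla. Glia followed with 0.430%, 0.381% and 0.456%, and mural cells with 0.338%, 0.286% and 0.227%. The lowest shares of the 7 classes were in lymphatic endothelium, at 0.0638%, 0.0586% and 0.0728%. Blood endothelium (0.167%, 0.101% and 0.188%) and basal keratinocytes (0.212%, 0.196% and 0.190%) lay between. In fibroblasts the share was lowest in the WT library in each of the 3 clusters that make up the class, while in cluster 6 it was lowest in the library without alopecia (1.39%, 0.858% and 1.42%).

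**Figure D1:**
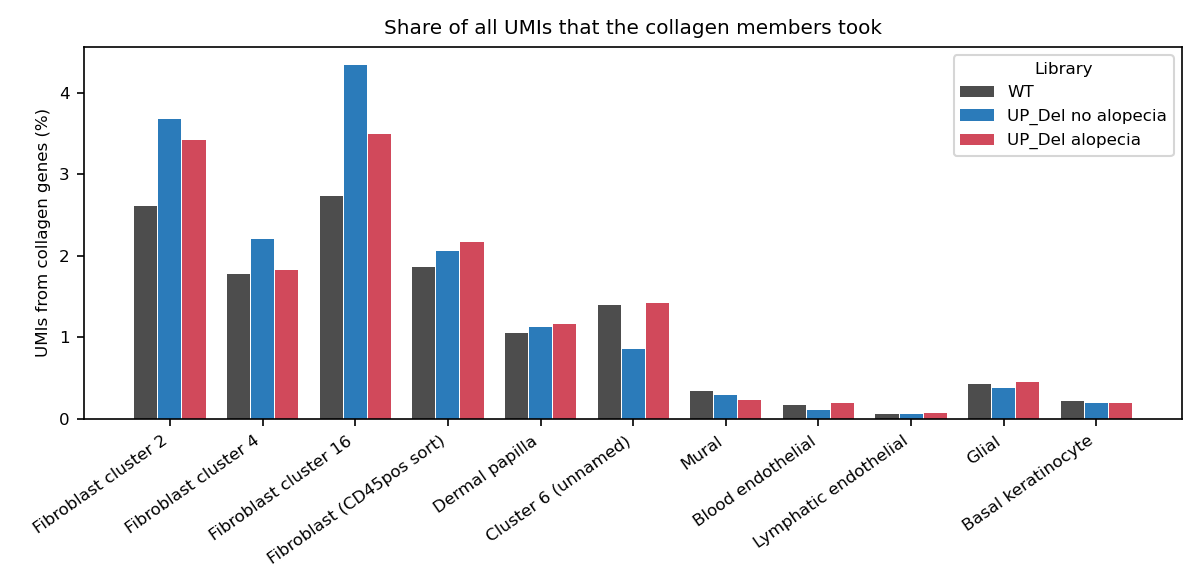
Percentage of all UMIs that came from collagen members (y axis, starting at 0) in the 3 fibroblast clusters, in the fibroblasts of the CD45-positive sort and in the other classes (x axis), with 1 bar per library. The WT bar is the lowest in each fibroblast cluster, and in cluster 6 the bar of the library without alopecia (0.858%) is the lowest.

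The 7 classes differed in which collagen genes they held. Of the 37 members with at least 20 UMIs over the 7 classes, 10 had their highest mean level in dermal papilla, 9 in glia, 8 in fibroblasts, 5 in mural cells, 3 in basal keratinocytes and 2 in blood endothelium. Lymphatic endothelium was highest for 0 members. The class was the same in each of the 3 libraries for 26 of the 37: all 10 of dermal papilla, all 8 of fibroblasts, 5 of glia, 2 of basal keratinocytes and 1 of mural cells. The types of collagen differed between classes too. Fibril-forming chains took 91.3%, 94.9% and 93.2% of collagen UMIs in fibroblasts but 38.4%, 41.0% and 41.1% in dermal papilla. Basement membrane chains took 76.0%, 59.0% and 68.5% in blood endothelium. In basal keratinocytes the transmembrane collagens took 76.4%, 80.9% and 79.4%.

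**Figure D2:**
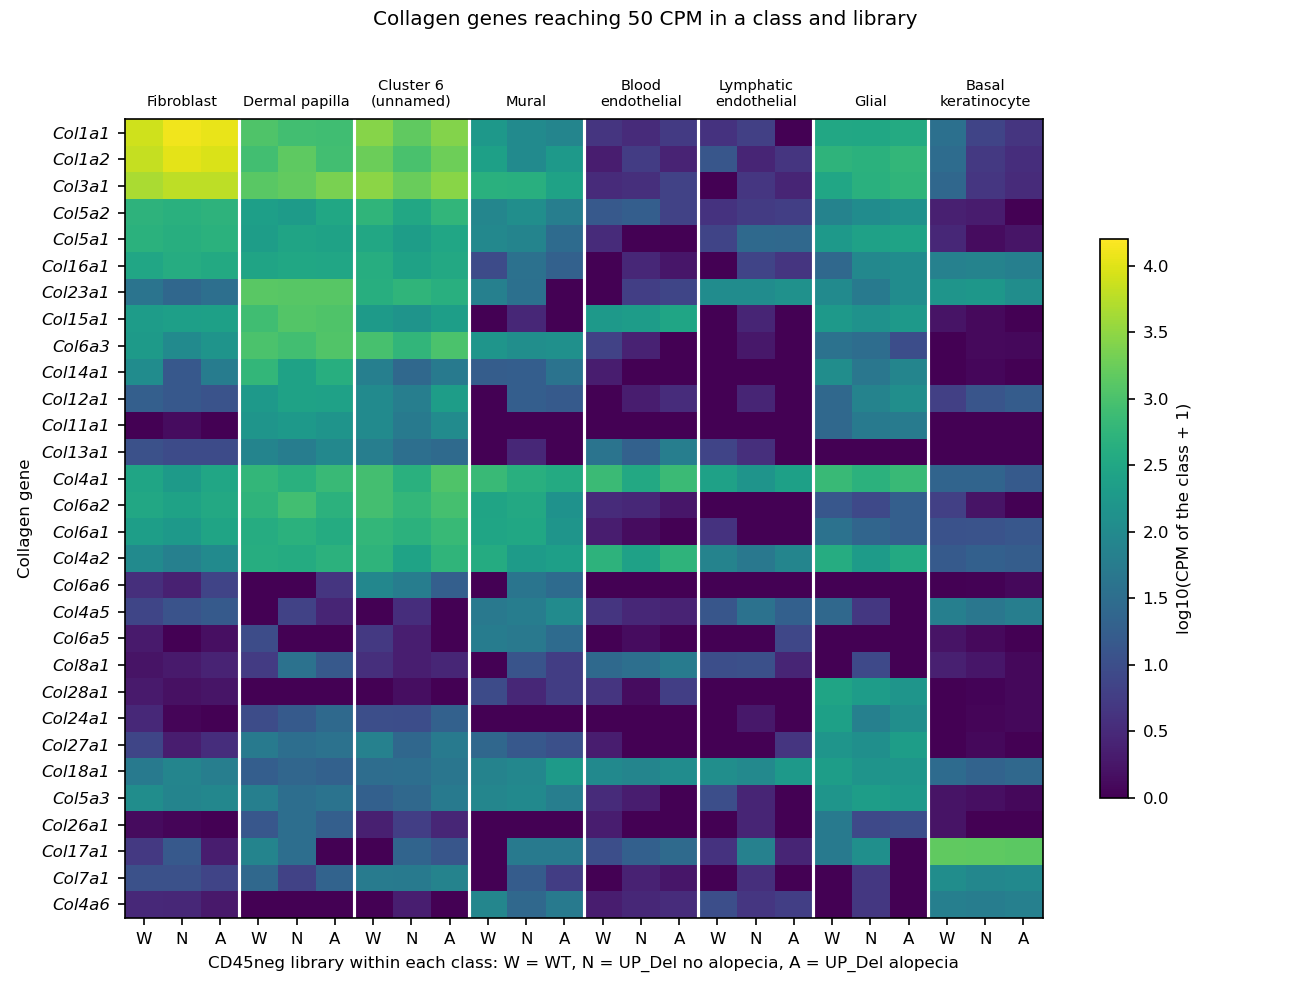
Heat map of log10(CPM + 1) for the 30 members that reached 50 CPM in a class and library (rows), in 8 classes with the libraries WT, UP_Del without alopecia and UP_Del with alopecia side by side (columns W, N, A). Col1a1, Col1a2 and Col3a1 are brightest in fibroblasts, Col23a1, Col15a1 and Col6a3 in dermal papilla, Col28a1, Col24a1 and Col27a1 in glia and Col17a1 in basal keratinocytes.

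Type I collagen, the main fibril of the dermis, is made of 2 chains from Col1a1 and 1 from Col1a2. Col1a1 (chr11:94936224-94953042, plus strand) stood at 7822, 12746 and 11294 CPM in fibroblasts, and Col1a2 (chr6:4504814-4541544, plus strand) at 6701, 10492 and 9177 CPM. Both were lowest in the WT library and highest in the library without alopecia. Over WT, Col1a1 had a log2 ratio of 0.70 (0.68 to 0.73) in the library without alopecia and, short of 1.5-fold, 0.53 (0.51 to 0.55) in the one with alopecia. For Col1a2 the ratios were 0.65 (0.62 to 0.67) and 0.45 (0.43 to 0.48). The 2 UP_Del libraries lay closer together, with log2 ratios of alopecia over no alopecia of -0.17 for Col1a1 and -0.19 for Col1a2. These comparisons share libraries and are not independent of each other.

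The order held in each fibroblast cluster, but the level did not. Cluster 2, led by Pi16, C3 and Clec3b, had Col1a1 at 9683, 15247 and 13561 CPM. In cluster 4, led by Tnfaip6, Ccl7 and Has1, it was 5863, 8515 and 6583 CPM. In cluster 16, led by Igfbp2, Qpct and Grem1, it was 9105, 16412 and 12516 CPM. Cluster 4 was the lowest of them in each library. It made up 47.5%, 42.8% and 34.0% of the class, so the mixture of clusters also differed between libraries. Fibroblasts that reached the CD45-positive sort (101, 254 and 186 cells) had Col1a1 at 6282, 7691 and 7812 CPM. The log2 ratio of no alopecia over WT was there 0.29 (0.23 to 0.35) and under the 1.5-fold limit.

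Col3a1 (chr1:45311538-45349706, plus strand), the chain of type III collagen that co-assembles with type I, stood at 4688, 6014 and 6001 CPM in fibroblasts. Both UP_Del libraries were higher than WT by a log2 ratio of 0.36 (0.33 to 0.39), short of 1.5-fold. In dermal papilla Col3a1 was the member of highest level, at 1329.9 CPM (1186 to 1486), 1542 CPM (1413 to 1679) and 2267 CPM (2145 to 2394), second only to Col23a1 in the WT library. The alopecia library was the highest, and its log2 ratio over WT was 0.77 (0.59 to 0.95). The sequence in front of the Col3a1 start is shown as that of a main fibril-forming member that was high in both fibroblasts and dermal papilla. The 250 bases (chr1:45311288-45311537, GRCm38.p6, plus strand) have a GC content of 35.2% and hold 1 TATAAA, in capitals, whose first base lies 117 bases before the start.
Col3a1: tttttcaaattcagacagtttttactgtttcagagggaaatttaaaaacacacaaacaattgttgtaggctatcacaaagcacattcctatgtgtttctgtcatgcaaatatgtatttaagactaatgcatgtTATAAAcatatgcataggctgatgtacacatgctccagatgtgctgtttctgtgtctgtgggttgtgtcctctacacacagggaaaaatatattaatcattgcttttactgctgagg

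Such upstream sequences were found for 33 of the 41 members (35 windows, from RefSeq). Motifs were searched by their letters on both strands, and overlaps between motifs were allowed. The TATA box motif TATAAA occurred in 14.3% of member windows and 12.4% of all 32841 windows. The CCAAT box motif was in 31.4% and 33.9%, and the AP-1 motif TGANTCA in 2.86% and 6.75%. The GC box motif GGGCGG occurred in 60% of member windows and 32.7% of all windows, and the median GC content was 59.6% against 52.4%. A match describes the letters and is not evidence of a factor bound there.

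Type V collagen sets the diameter of type I fibrils. Its chains Col5a1 (488, 437 and 478 CPM) and Col5a2 (519, 455 and 518 CPM) were higher in fibroblasts than in the other 6 classes, and Col5a1 made up 48.5%, 49.0% and 48.0% of the UMIs of the pair there. Cluster 6 had Col5a2 at 559, 324 and 581 CPM, above the fibroblasts in 2 of the 3 libraries. In glia Col5a1 made up 70.0% (45.7% to 88.1%), 69.5% (59.2% to 78.5%) and 66.7% (51.0% to 80.0%). The third type V chain, Col5a3, had its highest level of the 7 classes in glia, at 152, 215 and 180 CPM, against 114, 77.3 and 87.8 CPM in fibroblasts, and stood at 245, 112 and 167 CPM in cluster 20. The type I pair kept a similar balance in fibroblasts, with 53.9%, 54.8% and 55.2% of its UMIs from Col1a1. In dermal papilla that share was 56.6% (52.0% to 61.2%), 37.1% (33.7% to 40.5%) and 48.4% (45.2% to 51.7%), and the intervals did not overlap. Dermal papilla cells of the library without alopecia also carried more of the summed fibroblast markers (1048, 1965 and 911 CPM for 10 genes, of which 2, 0 and 1 were at 0), and the part of this in the Col1a2 levels of 855, 1457 and 854 CPM was not tested.

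Other fibril-forming chains had narrow distributions. Col11a1, of type XI collagen, was found in dermal papilla at 154, 178 and 151 CPM and in cluster 6 at 103, 52.1 and 104 CPM, with 0, 3 and 0 UMIs in fibroblasts. Col24a1 stood at 240 CPM (145 to 375), 67.8 CPM (40.2 to 107) and 117 CPM (62.2 to 200) in glia, on 19, 18 and 13 UMIs. The log2 ratio of no alopecia over WT was -1.83 (-2.84 to -0.82). Col24a1 was found in the glial cluster with Ncmap and Mal among its leading genes (334, 120 and 210 CPM) and at 0 UMIs in each library in the glial cluster led by Csmd1, Scn7a and Cdh19. Col27a1 had the opposite placement: 0 to 20 CPM in the first glial cluster (1, 3 and 0 UMIs) and 496, 260 and 485 CPM in the other one. The second of these clusters held 10, 55 and 21 cells. Col2a1, the cartilage collagen, and Col11a2 stayed at or below 0.339 and 16.4 CPM in the 7 classes.

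Across the fibroblasts as a whole, 26 members could be compared between the 2 UP_Del libraries. With alopecia over without, 8 were higher and 2 lower, where 7.91% and 6.57% of all 11970 genes tested were. The median log2 ratio was 0.18 over the members and -0.01 over all genes. Col4a1, Col4a2, Col4a3, Col4a4, Col6a1, Col6a6, Col14a1 and Col27a1 were the higher ones, Col27a1 at levels that free RNA could give, and Col7a1 and Col17a1 the lower ones, of which Col17a1 was likewise in the free-RNA range (4.07, 13.7 and 1.19 CPM). The log2 ratio turned to 1.78 for Col7a1 and 4.39 for Col17a1 in the CD45-positive sort, to 0.040 for Col7a1 with classes taken from the marker UMIs of each cell and to -0.84 for Col6a6 with cluster 6 joined to the fibroblasts. Without cluster 4 the count of higher members was 4. Between the library without alopecia and WT, 5 of 26 were higher and 7 lower, with a median of -0.29, where 10.7% and 9.10% of all genes were higher or lower. The lower members numbered 3 when cluster 4 was left out. Between the alopecia library and WT, 2 of 25 were higher and 4 lower, against 8.06% and 6.96% of all genes. That count of higher members was 5 without cluster 4 and 1 without cluster 2, and that of lower members was 1 without cluster 4.

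Col4a1, a chain of basement membrane collagen, was lowest in the library without alopecia in most classes. The main network of every basement membrane is built from trimers of 2 chains from Col4a1 and 1 from Col4a2. In blood endothelium Col4a1 stood at 738 CPM (682 to 798), 342 CPM (320 to 365) and 736 CPM (689 to 786). Col4a2 stood there at 527, 250 and 548 CPM. The library without alopecia was the low one for both, and its interval lay apart from the others. Against it, the alopecia library was higher by log2 ratios of 1.11 (0.97 to 1.24) for Col4a1 and 1.13 (0.97 to 1.29) for Col4a2, and the log2 ratios of alopecia over WT were -0.00 (-0.15 to 0.14) and 0.06 (-0.12 to 0.23).

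The library without alopecia was the lowest for Col4a1 in 6 more groups of cells. Fibroblasts had 297, 190 and 299 CPM, cluster 6 896, 471 and 1085 CPM, and dermal papilla 607, 467 and 704 CPM. Lymphatic endothelium had 253, 146 and 247 CPM, glia 696, 501 and 710 CPM, and the fibroblasts of the CD45-positive sort 347, 192 and 379 CPM. Mural cells did not follow this order, with 690, 452 and 369 CPM and a log2 ratio of -0.90 (-1.37 to -0.44) for alopecia over WT. Mural Col4a2 was lowest without alopecia, at 386, 202 and 230 CPM, while mural Col4a5 was lowest in WT, at 49.3, 59.6 and 106 CPM. The log2 ratio of alopecia over no alopecia was 0.66 (0.55 to 0.77) in fibroblasts, 1.205 (1.08 to 1.32) in cluster 6, 0.59 (0.32 to 0.86) in dermal papilla, 0.76 (0.43 to 1.09) in lymphatic endothelium and 0.98 (0.70 to 1.26) in the CD45-positive sort. In glia it was 0.50 (0.08 to 0.92), under the 1.5-fold limit. The share of alopecia fibroblasts from cluster 4, 34.0% against 42.8%, differed between the libraries, but within cluster 4 alone Col4a1 stood at 254, 140 and 232 CPM, and within cluster 2 at 325, 205 and 300 CPM.

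**Figure D3:**
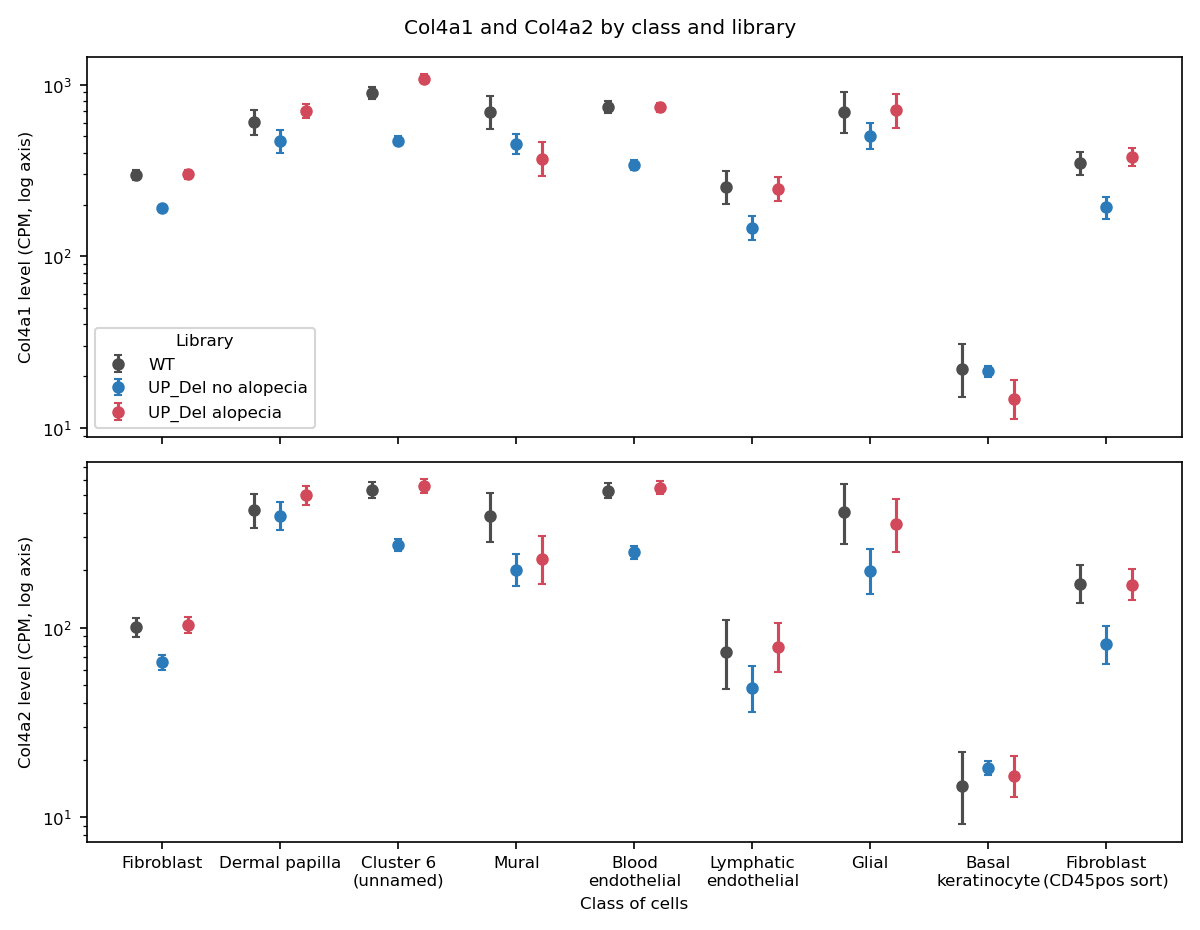
Levels of Col4a1 (top) and Col4a2 (bottom) in CPM on a log axis, by class (x axis) and library (colour), with exact 95% Poisson intervals as bars. In blood endothelium, cluster 6 and both groups of fibroblasts the point of the library without alopecia lies below the points of the other libraries for both genes.

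Several other values moved with this order. In blood endothelium the cluster led by Selp, Sele and Ackr1 was low in Col4a1 (254, 186 and 284 CPM) against the cluster led by Cd36 and Flt1 (815, 421 and 893 CPM), and it made up 8.92%, 23.2% and 13.6% of the class. The library without alopecia was the lowest in each of these clusters, and the part of their mixture was not tested. The WT blood endothelium carried 5235 CPM of erythroid markers, against 8.6 and 13.1 CPM. A list of 20 genes of dissociation stress had a median log2 ratio of -0.52 for alopecia over no alopecia in blood endothelium, with 0 genes higher and 7 lower. Its part in the collagen differences was not tested. In lymphatic endothelium the markers of the class itself stood in the order of Col4a1, at 12422, 7453 and 12151 CPM (1, 1 and 0 of 7 genes at 0). Bulge markers stood there at 9.25, 374 and 45.4 CPM (7, 2 and 2 of 8 at 0) and myeloid markers at 743, 121 and 18.5 CPM (0, 4 and 4 of 7 at 0), and 0 of 20 stress genes were higher and 15 lower with alopecia over without, with a median of -0.77. The part of these values was not tested either. Scaling by trimmed means shifted the ratios of alopecia over no alopecia by 0.10 in blood endothelium, 0.11 in glia and 0.26 in the CD45-positive fibroblasts, where the median of all genes was itself 0.21, and those of no alopecia over WT by -0.11 in glia and cluster 6 and by -0.22 in the CD45-positive fibroblasts, each toward 0 for Col4a1 and with its direction kept.

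Other proteins of the basement membrane moved in the same libraries in blood endothelium. Of 15 laminin, nidogen, perlecan and agrin genes, 10 were measured, and with alopecia over without 4 were higher and 0 lower: Lama3 (61.6 to 138 CPM) and Lamb1, both laminin chains, Nid1 and Hspg2 (237 to 466 CPM), which encodes perlecan. Of all genes, 16.2% were higher and 10.1% lower. Between the library without alopecia and WT, 0 of 10 were higher and 4 lower, against 11.9% and 12.2% of all genes. In fibroblasts, Nid1 (163 to 270 CPM), Nid2 and Lamc3 were higher with alopecia than without. Lama3 and Lamb3, each at or below 1.96 CPM, were lower there by ratios whose intervals hold 1.

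The balance of the 2 chains differed between classes. Col4a1 made up 74.8% (72.2% to 77.3%), 74.4% (72.4% to 76.3%) and 74.4% (72.3% to 76.5%) of the pair's UMIs in fibroblasts. In blood endothelium it made up 58.4% (55.4% to 61.3%), 57.8% (55.2% to 60.3%) and 57.3% (54.9% to 59.8%). The intervals of the 2 classes did not overlap, while those of the libraries within a class did. The 2 genes lie head to head on chromosome 8, and their RefSeq starts overlap: Col4a2 starts at base 11312805 on the plus strand and Col4a1 at base 11312826 on the minus strand. The overlap is 22 bases long.

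Col4a3 and Col4a4, chains of the network of kidney glomeruli, were low, at 4.75, 2.75 and 5.69 CPM and at 11.2, 8.64 and 14.2 CPM in fibroblasts, which had more of both than the other 6 classes. Outside the classes, cluster 20 had Col4a4 at 7.90, 21.6 and 16.7 CPM and the bulge had Col4a3 at 7.04, 9.34 and 0 CPM. In fibroblasts Col4a3 made up 29.8%, 24.1% and 28.6% of the UMIs of this pair. Col4a5 and Col4a6, the X-linked chains that with each other form the epidermal network, are a second head-to-head pair, with 1342 bases between their RefSeq starts. In basal keratinocytes Col4a5 stood at 63.0, 45.0 and 61.9 CPM and Col4a6 at 63.0, 58.6 and 65.7 CPM, and the Col4a5 and Col4a6 UMIs numbered 95 and 95 in WT, 1363 and 1776 without alopecia and 249 and 264 with it. Mural cells had both, at 49.3, 59.6 and 106 CPM and at 82.2, 24.99 and 52.8 CPM. In fibroblasts the pair was uneven, with 76.0%, 84.5% and 93.9% of its UMIs from Col4a5, on 19, 82 and 62 UMIs. Col4a5 was 1 of the 2 members higher in alopecia than in WT fibroblasts, with a log2 ratio of 1.19 (0.43 to 2.01).

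Type VI collagen, whose trimer of Col6a1, Col6a2 and Col6a3 chains surrounds cells with beaded filaments, had its highest levels of the 7 classes in dermal papilla. Col6a3 stood there at 1022 CPM (897 to 1160.1), 861 CPM (766 to 965) and 1140.4 CPM (1054 to 1232), against 190, 102 and 149 CPM in fibroblasts. Col6a1 and Col6a2 stood at 402, 476 and 382 CPM and at 543, 847 and 489 CPM in dermal papilla, and at 228, 186 and 286 CPM and 333, 260 and 341 CPM in fibroblasts. Cluster 6 exceeded dermal papilla in Col6a1 in each library (594, 508 and 687 CPM) and in Col6a2 in WT and with alopecia (891, 592 and 909 CPM). Col6a1 made up 40.7%, 41.7% and 45.6% of the UMIs of Col6a1 and Col6a2 in fibroblasts. In fibroblasts the library without alopecia was the lowest for each of the 3 chains. Its log2 ratio to WT was -0.90 (-1.06 to -0.74) for Col6a3, and -1.40 (-1.77 to -1.04) in the CD45-positive sort. By cluster, Col6a3 was lowest without alopecia in cluster 2 (160, 91.9 and 174 CPM) and cluster 4 (228, 77.4 and 93.6 CPM) but highest there in cluster 16 (145, 205 and 167 CPM).

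In mural cells Col6a1 and Col6a2 differed in the other direction between the UP_Del libraries, with 296, 313 and 153 CPM and with 288, 344 and 139 CPM. The log2 ratios of alopecia over no alopecia were -1.03 (-1.62 to -0.48) and -1.31 (-1.93 to -0.73). Without doublet removal these ratios were -0.35 and -0.68, the first of them under 1.5-fold. Of 18 members measured in mural cells in this comparison, 4 were higher and 8 lower, where 15.6% and 22.4% of all genes were. Without alopecia over WT, 3 of 19 were higher and 6 lower, against 25.3% and 14.8%, and for alopecia over WT 2 of 13 were higher and 7 lower, against 21.4% and 18.7%. The 35 mural cells of the alopecia library also carried 14275 CPM of upper follicle keratinocyte markers (0 of 8 genes at 0), against 41.1 and 113 CPM, and 2878 CPM of suprabasal keratinocyte markers, against 16.4 and 71.1 CPM. Skeletal muscle markers stood in the opposite order, at 1988, 1240 and 528 CPM (5, 4 and 6 of 7 genes at 0). That list shares Des with the mural markers, and Des alone stood at 1881, 1190 and 528 CPM. Of the 10 mural markers themselves, all detected, Kcnj8 (140, 221 and 14.4 CPM), Abcc9 (123, 173 and 38.4 CPM) and Des were lowest with alopecia. By contrast, Rgs5 (1618, 2113 and 2154 CPM), Notch3 (682, 684 and 935 CPM) and Tagln were highest with alopecia. Myh11, Acta2, Cspg4 and Higd1b were lowest in another library. Fibroblast markers stood at 2818, 1411 and 2466 CPM (4, 4 and 3 of 10 genes at 0), and the part of these values in the collagen ratios was not tested. The remaining type VI chains were found in mural cells, Col6a5 at 57.5, 48.1 and 28.8 CPM (7, 25 and 6 UMIs) and Col6a6 at 0, 42.3 and 28.8 CPM. In cluster 6 Col6a6 stood at 88.3, 60.3 and 17.6 CPM, where the alopecia library was lower than WT by a log2 ratio of -2.32 (-3.14 to -1.57).

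A fibril-associated collagen had the largest ratio in fibroblasts among members outside the free-RNA range. Col14a1 (chr15:55307750-55520803, plus strand), which decorates type I fibrils, stood at 111 CPM (99.3 to 124), 13.3 CPM (10.9 to 16.2) and 56.0 CPM (49.1 to 63.6) in fibroblasts. Its log2 ratio was -3.06 (-3.39 to -2.73) for no alopecia over WT and 2.07 (1.73 to 2.42) for alopecia over no alopecia. Its UMIs came from few cells: 8.6%, 3.2% and 8.9% of fibroblasts had any. They also came from different clusters, since 294 of the 327 WT UMIs lay in cluster 4 (212, 15.2 and 31.7 CPM) and 184 of the 236 alopecia UMIs in cluster 2 (23.3, 12.4 and 82.7 CPM). Without cluster 4 the log2 ratio of alopecia over WT turned from -0.99 (-1.24 to -0.74) to 1.65. The fibroblasts of the CD45-positive sort had 15.3, 12.5 and 28.3 CPM, and the same ratio was there 0.89 (-0.42 to 2.38).

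Dermal papilla held the highest Col14a1 level of the 7 classes, at 603, 266 and 423 CPM, and again the library without alopecia was the lowest, with a log2 ratio to WT of -1.18 (-1.58 to -0.79). Col12a1, another fibril-associated chain, stood at 188, 260 and 253 CPM in dermal papilla. In cluster 6 it was 102 CPM (80.1 to 127), 62.4 CPM (52.7 to 73.4) and 219 CPM (192 to 249). The highest Col12a1 level of the data lay outside the 7 classes, in melanocytes, at 860 CPM (789 to 935), 547 CPM (510 to 586) and 571 CPM (521 to 626). Among the 7 classes Col16a1 was highest in fibroblasts (304, 400 and 355 CPM), followed by dermal papilla (282, 321 and 300 CPM), and it was also found in basal keratinocytes (68.9, 75.5 and 63.2 CPM) and in cluster 6 (408, 258 and 337 CPM). The remaining 4, Col9a2, Col9a3, Col19a1 and Col20a1, stayed at or below 32.9 CPM in every class.

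The epidermal side of the skin used other members. Col17a1 (chr19:47646344-47692094, minus strand), the transmembrane collagen of hemidesmosomes, stood at 1470.4 CPM (1409.8 to 1533), 1424 CPM (1410.3 to 1437) and 1397 CPM (1360.4 to 1434) in basal keratinocytes. The log2 ratios were -0.05 (-0.11 to 0.02) for no alopecia over WT and -0.03 (-0.07 to 0.01) for alopecia over no alopecia. Bulge keratinocytes, which hold the hair follicle stem cells, had 1264, 1126 and 1177 CPM and suprabasal keratinocytes 527, 717 and 714 CPM. None of the 5 hemidesmosome partners (Itga6, Itgb4, Dst, Plec and Cd151) was higher or lower in basal keratinocytes in any of the 3 comparisons. Of 18 members measured there with alopecia over without, 1 was higher and 4 lower, against 8.23% and 7.76% of all genes. The higher member was Col19a1, on 15 against 41 UMIs, and the 4 lower ones, Col1a1, Col1a2, Col3a1 and Col8a1, were in the free-RNA range. Without alopecia over WT, 1 of 19 was higher and 7 lower, against 8.63% and 12.5%, and for alopecia over WT 1 of 14 was higher and 3 lower, against 7.25% and 7.54%, all but Col19a1 and Col20a1 in the free-RNA range.

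Col7a1 (chr9:108953586-108984875, plus strand), the chain of anchoring fibrils, was highest in basal keratinocytes as well, at 113 CPM (96.4 to 131), 87.8 CPM (84.5 to 91.2) and 97.8 CPM (88.3 to 108). The bulge had 98.5, 71.8 and 85.7 CPM, cluster 6 54.8, 51.3 and 73.3 CPM and fibroblasts 10.2, 10.2 and 6.17 CPM. Its upstream 250 bases are shown to set this epidermal member beside the fibril-forming Col3a1 above. They (chr9:108953336-108953585, GRCm38.p6, plus strand) have a GC content of 56.4% and hold 1 GGGCGG and, on the minus strand, 1 CCAAT motif, both in capitals.
Col7a1: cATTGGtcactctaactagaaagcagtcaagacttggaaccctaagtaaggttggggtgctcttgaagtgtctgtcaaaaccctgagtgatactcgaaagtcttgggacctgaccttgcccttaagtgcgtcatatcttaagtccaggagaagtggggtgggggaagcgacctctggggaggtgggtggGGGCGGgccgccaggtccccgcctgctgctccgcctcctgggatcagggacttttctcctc

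Col23a1 (chr11:51289920-51583918, plus strand), a transmembrane collagen whose ectodomain can be shed, was the member that most set dermal papilla apart. Its level was 1343 CPM (1198 to 1499.7), 1299 CPM (1181 to 1426) and 1304 CPM (1211 to 1401), and every dermal papilla cell of each library had a UMI. The libraries did not differ beyond their intervals. Cluster 6 had 428, 569 and 442 CPM, basal keratinocytes 152, 166 and 113 CPM and lymphatic endothelium 111, 108 and 133 CPM. In fibroblasts the level of 39.7, 24.1 and 33.2 CPM was within the range that free RNA could give. The 250 bases before its start (chr11:51289670-51289919, GRCm38.p6, plus strand) are shown because the mean level in dermal papilla was 9.17 times that of the next class. Their GC content is 66% and they hold 1 GGGCGG, in capitals, on the minus strand.
Col23a1: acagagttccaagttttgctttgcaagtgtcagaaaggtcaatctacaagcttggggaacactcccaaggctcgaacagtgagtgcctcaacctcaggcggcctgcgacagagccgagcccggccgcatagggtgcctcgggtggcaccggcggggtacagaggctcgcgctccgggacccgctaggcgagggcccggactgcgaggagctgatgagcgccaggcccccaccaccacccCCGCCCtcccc

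Among the other transmembrane members, Col13a1 stood at 77.0, 58.4 and 91.2 CPM in dermal papilla and at 40.4, 19.5 and 62.3 CPM in blood endothelium. In the latter the alopecia library exceeded the one without by a log2 ratio of 1.68 (1.14 to 2.22), on 76 and 50 UMIs from 8.5% and 4.5% of the cells. Col25a1 was at most 5.84 CPM in the 7 classes and was found in melanocytes at 31.1, 13.3 and 29.4 CPM.

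The multiplexins Col15a1 and Col18a1, which link basement membranes to the matrix and give rise to the endostatin-like fragments, divided the classes between them. Col15a1 stood at 804, 1174 and 1121 CPM in dermal papilla, at 211, 235 and 242 CPM in fibroblasts, at 184, 210 and 298 CPM in blood endothelium and at 190, 139 and 180 CPM in glia. It was at most 1.92 CPM in mural cells and 1.77 CPM in lymphatic endothelium. Col18a1 was found in both of these, at 73.9, 86.5 and 192 CPM and at 117, 92.2 and 187 CPM, and in glia at 215, 151 and 153 CPM. In lymphatic endothelium the alopecia library exceeded the one without by a log2 ratio of 1.02 (0.62 to 1.42). In fibroblasts Col18a1 stood at 51.6, 81.8 and 60.5 CPM and was higher without alopecia than in WT by 0.66 (0.41 to 0.93), where the CD45-positive sort gave -0.02 (-0.65 to 0.64).

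Col8a1, a short-chain collagen of the vessel wall, stood at 26.6, 33.5 and 54.1 CPM in blood endothelium and at 4.28, 38.0 and 14.04 CPM in dermal papilla. Cluster 20 had it at 63.2, 112 and 44.5 CPM. Its partner Col8a2 stood at 8.55, 20.4 and 28.1 CPM in dermal papilla and at 37.5, 53.3 and 38.0 CPM in bulge keratinocytes. Col10a1, the short-chain collagen of growth plate cartilage, was at most 2.92 CPM in the 7 classes.

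Col28a1 (chr6:7997808-8192617, minus strand), a collagen of the peripheral nerve, had the largest ratio of its highest class to the next one among the 37 members. Glia had 278 CPM (174 to 421), 211 CPM (159 to 274) and 153 CPM (89.0 to 245), on 22, 56 and 17 UMIs, and the mean was 43.0 times that of the next of the 7 classes, mural cells. Cluster 20 had 39.5, 32.5 and 33.4 CPM. The intervals of the libraries overlap. The glial cluster with Ncmap and Mal among its leading genes had 334, 327 and 226 CPM and the other 135, 60.6 and 60.6 CPM. Its upstream 250 bases (chr6:8192618-8192867, GRCm38.p6, minus strand) are shown for that ratio, and they hold none of the motifs, so no letters are in capitals. Their GC content is 40.4%.
Col28a1: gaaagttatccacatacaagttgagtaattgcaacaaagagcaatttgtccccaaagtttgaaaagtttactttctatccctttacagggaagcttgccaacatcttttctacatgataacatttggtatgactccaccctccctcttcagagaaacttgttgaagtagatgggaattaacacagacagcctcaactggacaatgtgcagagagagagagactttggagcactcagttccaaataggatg

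The members of highest level in glia were Col4a1 (696, 501 and 710 CPM), Col1a2 (544, 478 and 602 CPM, in the free-RNA range in the library without alopecia) and Col3a1 (304, 463 and 566 CPM). Col26a1 was found in glia at 50.6, 7.53 and 8.98 CPM, on 4, 2 and 1 UMIs, and in dermal papilla at 12.8, 32.1 and 17.5 CPM, too few UMIs to order the 2 classes. With alopecia over without, 6 of 19 glial members were higher and 1 lower, where 18.0% and 16.1% of all genes were. Only Col4a2, at 405, 200 and 350 CPM, had an interval that left out 1 among the higher ones, with a log2 ratio of 0.81 (0.18 to 1.44). The lower one was Col17a1, on 0 against 32 UMIs, and the 32 came from only 3 of 158 cells. Without alopecia over WT, 4 of 18 were higher and 4 lower, against 22.6% and 15.3%, and for alopecia over WT 3 of 14 were higher and 2 lower, against 18.3% and 13.8%. The glia without alopecia carried 3577 CPM of erythroid markers, against 12.6 and 8.98 CPM, and the part of this was not tested.

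The 3 comparisons in dermal papilla rest on 23 to 57 cells. With alopecia over without, 5 of 23 members were higher and 4 lower, near the 15.6% and 16.4% of all genes. Without alopecia over WT, 2 of 20 were higher and 4 lower, against 22% and 13.7%, and for alopecia over WT 1 of 19 was higher and 1 lower, against 18.3% and 12.3%. Col1a2 had a log2 ratio of 0.77 (0.53 to 1.01) for no alopecia over WT and -0.77 (-0.95 to -0.59) for alopecia over no alopecia, and Col6a2 of 0.64 (0.34 to 0.95) and -0.79 (-1.03 to -0.55). With classes from marker UMIs instead of clusters, the ratio of alopecia over no alopecia turned to 0.15 for Col1a2 and became -0.13 for Col6a2, and at a finer clustering that of Col1a2 was -0.34. Col5a2, at 235, 199 and 319 CPM, was higher with alopecia than without by 0.69 (0.28 to 1.11). Of the folding list in dermal papilla, 5 of 17 genes were higher and 0 lower without alopecia over WT, against 22% and 13.7% of all genes. For alopecia over WT, 5 of 18 were higher and 0 lower, against 18.3% and 12.3%. The genes higher in both were among others Plod2, at 111, 254 and 319 CPM, and Serpinh1, a collagen chaperone, at 889, 1559 and 1384 CPM. Of the 20 stress genes, 0 were higher and 17 lower with alopecia over without, with a median log2 ratio of -1.29. Of the 9 members measured in blood endothelium in that comparison, 4 were higher and 1 lower, where 16.2% and 10.1% of all genes were. The 4 were Col4a1, Col4a2, Col8a1 and Col13a1, and the lower one, Col5a2, was in the free-RNA range. Without alopecia over WT, 1 of 8 was higher and 3 lower, against 11.9% and 12.2%, and for alopecia over WT 4 of 7 were higher and 0 lower, against 11.4% and 6.89%. In lymphatic endothelium 3 of 7 were higher (Col4a1, Col4a2 and Col18a1) and 2 lower, against 11.1% and 12.9%. The lower ones were Col17a1, in the free-RNA range, and Col4a5, at 12.3, 37.2 and 18.5 CPM. Without alopecia over WT, 3 of 7 were higher and 2 lower, against 15.7% and 12.2%, and for alopecia over WT 1 of 4, Col18a1, was higher and 0 lower, against 12.6% and 10.4%.

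Of all groups of cells compared, cluster 6 had the most members past 1.5-fold. Of 25 members, 16 were higher and 2 lower with alopecia over without, where 11.6% and 9.65% of all genes were, and the median log2 ratio was 0.78 over the members and 0.04 over all genes. Against WT, the library without alopecia had 1 higher and 16 lower of 25, with a median of -0.67, where 11.2% and 12.8% of all genes were. Between the alopecia library and WT, 4 of 24 were higher and 2 lower, against 10.3% and 10.2%. Col12a1 had a log2 ratio of alopecia over no alopecia of 1.81 (1.51 to 2.12). Col1a1 stood at 2768, 1511 and 2597 CPM, Col3a1 at 2958, 1714 and 2892 CPM and Col6a3 at 934, 586 and 1013 CPM, each lowest in the library without alopecia. That order of Col1a1 is the reverse of the one in the named fibroblasts. The stress genes went the other way in cluster 6, with 0 of 20 higher and 17 lower for alopecia over no alopecia and a median of -0.85, and their part was not tested.

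**Figure D4:**
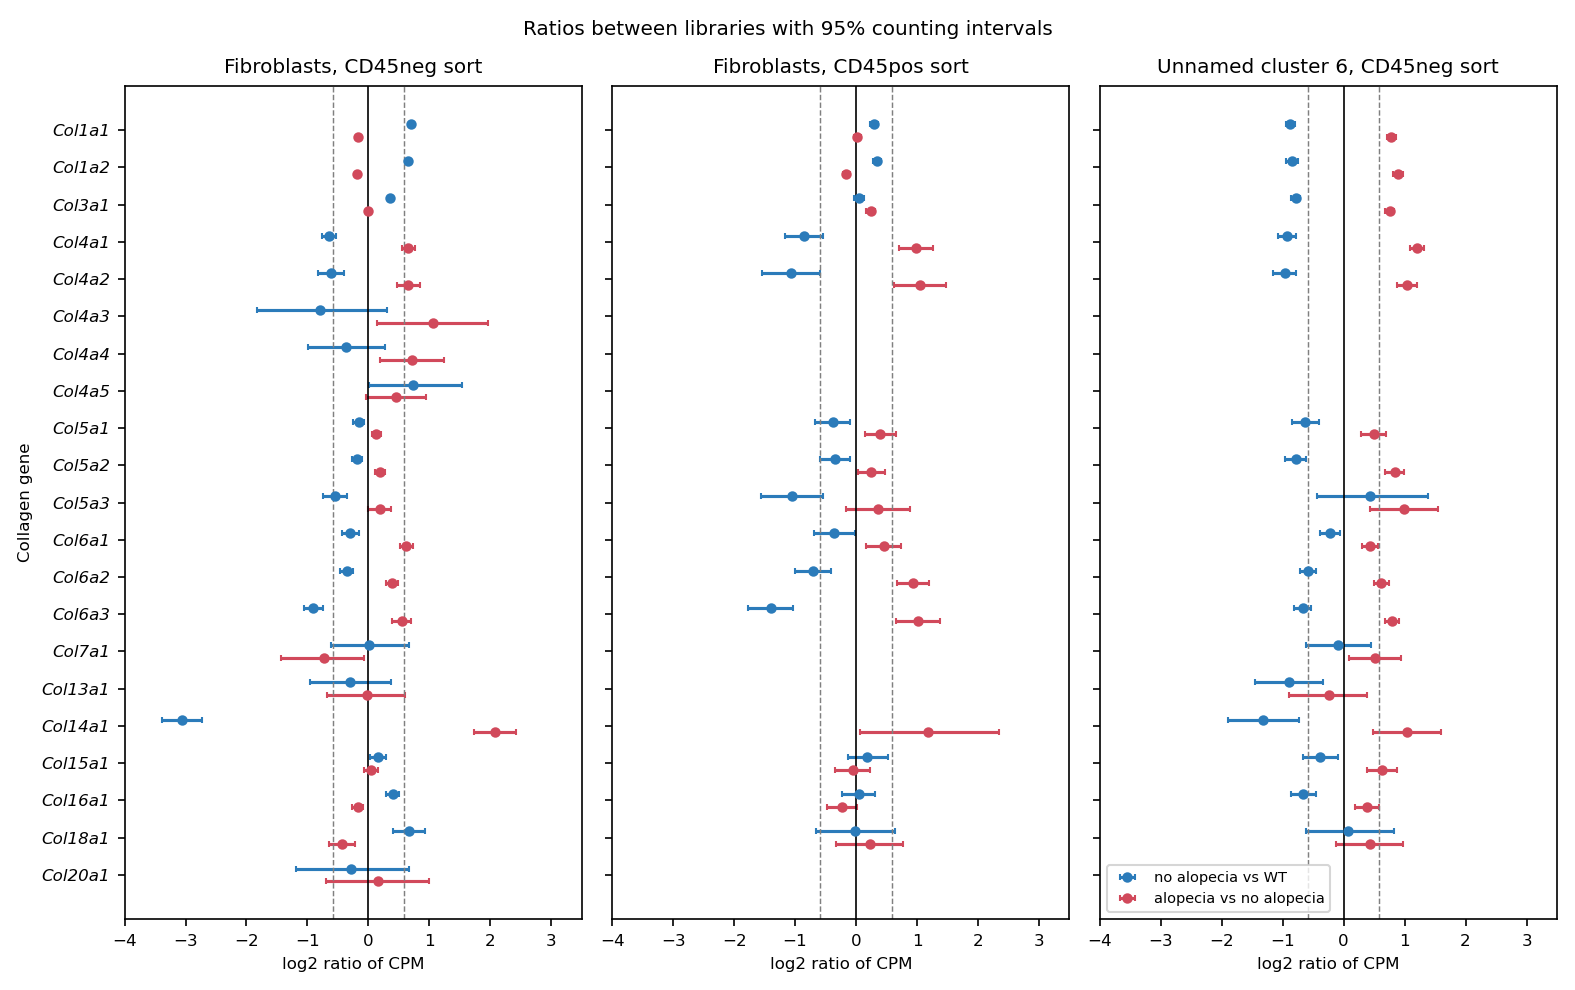
Log2 ratios of CPM for members in fibroblasts of the CD45-negative sort, fibroblasts of the CD45-positive sort and unnamed cluster 6 (panels), for UP_Del without alopecia over WT (blue) and alopecia over no alopecia (red), with exact 95% counting intervals and dashed lines at 1.5-fold. The 2 comparisons share the library without alopecia. Col4a1 and Col4a2 lie left of 0 in blue and right of 0 in red in each panel, while Col1a1 and Col1a2 in blue lie right of 0 in both groups of fibroblasts and left of 0 in cluster 6.

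Fibroblasts of the CD45-positive sort were captured in other libraries than those above. Of the members measured in them, 8 of 18 were higher and 0 lower with alopecia over without, against 25.1% and 6.59% of all genes, and 0 of 16 were higher and 7 lower without alopecia over WT, against 8.85% and 19.0%. For alopecia over WT 3 of 20 were higher and 3 lower, against 16.8% and 8.83%. Col4a2 stood at 170, 81.5 and 169 CPM and Col6a2 at 369, 227 and 433 CPM, both lowest without alopecia.

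Genes of collagen chain folding and modification were mostly within 1.5-fold between the fibroblasts of the libraries. Of the 21 genes of chain folding and modification, 20 were measured without alopecia over WT, and 0 were higher and 2 lower, where 10.7% and 9.10% of all genes were. These 2 were P4ha3 (14.9 to 0 CPM) and Plod2 (20.7 to 1.31 CPM), which encode a prolyl and a lysyl hydroxylase. Among 13 genes of propeptide cleavage and cross-linking, 11 were measured, with 2 higher, Pcolce (409 to 685 CPM), the enhancer of propeptide cleavage, and Loxl4, and 3 lower, Adamts14, Loxl3 and the cross-linking enzyme Lox (122 to 76.9 CPM). Of 14 fibril-binding proteins, 12 were measured, with Lum (1113 to 2196 CPM), Podn and Sparc (3793 to 6806 CPM) higher and Ogn lower. The counts of the cross-linking and fibril-binding lists stand against the same 10.7% and 9.10% of all genes.

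Turnover genes in the same comparison, with the same 10.7% and 9.10% of all genes, had 3 higher of 12 measured, Mmp11, Mmp23 and the collagen-degrading cathepsin Ctsk (334 to 754 CPM), and 2 lower, Mmp19 and the protease inhibitor Timp3 (1136 to 510 CPM). Among genes of TGF-beta signalling, a pathway known to induce collagen genes, Tgfbi (787 to 1730 CPM) and Ltbp2 were higher and Ccn2 (79.1 to 23.6 CPM) was lower. With alopecia over without, where 7.91% and 6.57% of all genes were higher and lower, the folding list had 1 higher and 1 lower of 19, the cross-linking list 1 higher (Adamts14) and 0 lower of 11, the fibril-binding list 0 and 0 of 12 and the turnover list 1 higher (Mmp3, 90.7 to 160 CPM) and 0 lower of 12. Ccn2 was the 1 gene of the TGF-beta list past 1.5-fold in that comparison (23.6 to 76.9 CPM). The collagen receptor list had 1 of 6 higher, Itga11. For alopecia over WT in fibroblasts, against 8.06% and 6.96% of all genes, the folding list had 0 higher and 3 lower of 20, the cross-linking list 1 higher and 0 lower of 11, the fibril-binding list 2 higher and 0 lower of 12, and the turnover list 3 higher and 2 lower of 12. In fibroblasts the stress list had 0 higher and 2 lower of 20 for alopecia over no alopecia, with a median of -0.30, and 0 higher and 9 lower for alopecia over WT, with a median of -0.54.

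Col27a1 was the member whose UMIs lay mostly in the other sort. The CD45-positive libraries held 3555 of its UMIs and the CD45-negative ones 499. Of the 3313 in CD45-positive cells kept, 39.8% lay in the cluster led by Tcrg-V5, Kcnma1 and Fermt2 and 33.3% in the cluster led by Ccl8, Pf4 and C1qc.

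**Figure D5:**
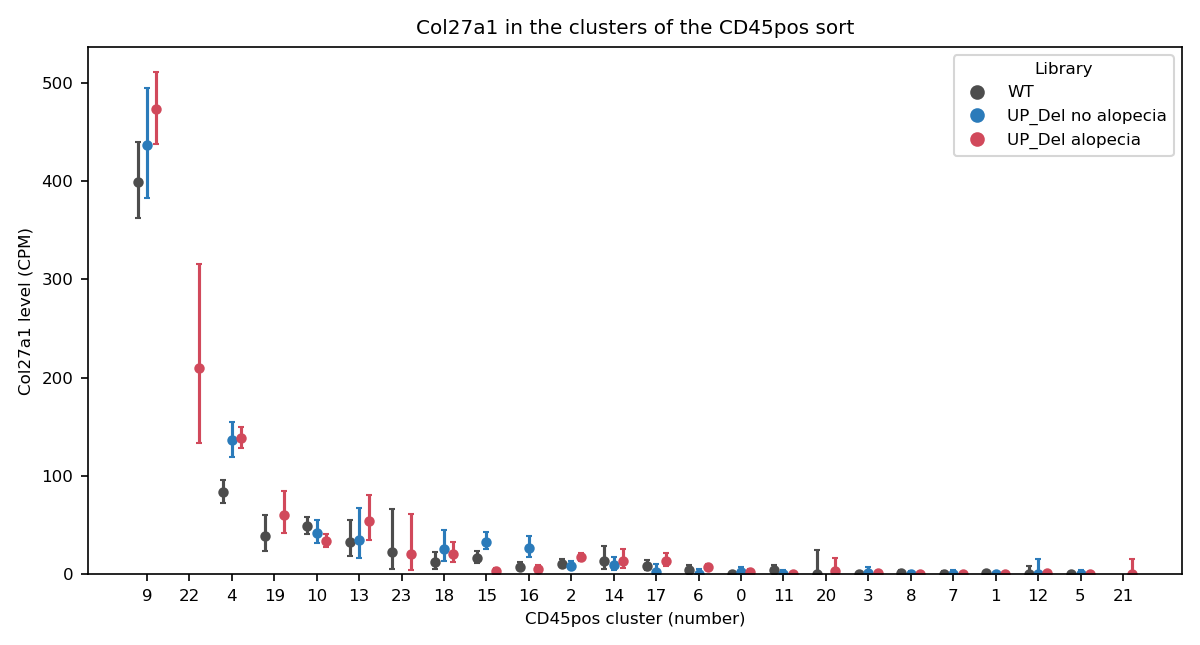
Level of Col27a1 in CPM (y axis, from 0) in each cluster of the CD45-positive sort with at least 20 cells in a library (x axis, cluster number), by library, with exact 95% Poisson intervals. Cluster 9, led by Tcrg-V5, stands between 400 and 474 CPM in the 3 libraries, while clusters 0, 3 and 1, led by Cd8b1, Foxp3 and Il17a, stay at or below 2.08 CPM.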

How the data were processed

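UMI counts per gene and cell barcode were deposited by the authors, made with Cell Ranger 7.1.0 on mm10 per the submitters' processing notes; these are the raw counts, 1 matrix per library, and no column of values was left unmapped. Gene positions are from GENCODE vM21 and upstream sequences from RefSeq (GRCm38.p6). Cells with at least 500 UMIs, 300 genes and at most 10% mitochondrial UMIs were kept. The doublet caller's threshold marked few cells, so the top scores were removed (0.4% per 1000 barcodes). Clustering pooled the cells of a sort over its 3 libraries (2000 variable genes without collagens, 30 components, 15 neighbours, Leiden resolution 1, seed 0), and clusters were named from 24 marker lists with thresholds chosen after the clusters were seen (score 1.2, margin 0.8, 5 markers).

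UMIs were summed per class and library (at least 20 cells), and ratios were computed for genes with at least 20 UMIs over both sums, with a floor of 3 counts where a sum was 0. With 1 library per group there is no test. Scripts were checked on simulated counts. Described were the 5 members of highest level per class, up to 4 members each way per comparison (at least 1.5-fold, interval leaving out 1) and 17 members always. Some genes of the lists are not reported here. The members and gene lists were chosen with earlier results of these data known. Alternatives were other cell filters, doublet rates, marker-based classes, scalings, UMI minimums, means over cells, the CD45-positive sort and leaving out each fibroblast cluster. Joining cluster 6 to the fibroblasts was chosen after the data were seen. Tools were Python 3.11.15, numpy 2.4.6, scipy 1.17.1, pandas 2.3.3, scanpy 1.11.5, scikit-learn 1.9.0, leidenalg 0.10.2, igraph 0.11.9 and matplotlib 3.10.9.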

Additional observations from a re-analysis of the deposited data

Results flagged for a closer look

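A few members differed in opposite directions in 2 classes under the same comparison, each with a counting interval that leaves out a ratio of 1, and the difference between the classes was not tested. For alopecia over no alopecia, Col5a2 had a log2 ratio of 0.69 in dermal papilla and -0.91 in mural cells. Col6a1 had 0.62 in fibroblasts and -1.03 in mural cells. Col8a1 had -1.44 in dermal papilla and 0.69 in blood endothelium. For alopecia over WT, Col3a1 had 0.77 in dermal papilla, 0.90 in glia and -0.83 in mural cells. The Col3a1 level of mural cells with alopecia (259 CPM) was in the free-RNA range. These mural cells also carried 14275 CPM of upper follicle keratinocyte markers. Without doublet removal the mural Col6a1 ratio was under 1.5-fold.

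Collagen UMIs also lay in leukocyte clusters of the CD45-positive sort, which the comparisons above do not use. A limit of 50 CPM in each library, set after the values were seen, left 3 cases among 15 clusters labelled as leukocytes. Cluster 7 (led by Il5 and Il13), cluster 17 (led by Hist1h1b, Hist1h2ap and Mki67) and cluster 21 (led by Gzma and Ccl5) were not so labelled. The leukocyte marker Ptprc nevertheless stood in them at 614 to 1848 CPM. Col27a1 stood at 399.7 CPM (362 to 440), 436 CPM (383 to 495) and 474 CPM (438 to 511) in the cluster led by Tcrg-V5, Kcnma1 and Fermt2 (270, 119 and 402 cells), in the order WT, UP_Del without alopecia, UP_Del with alopecia. Col27a1 stood at 83.7, 136 and 138 CPM in the cluster led by Ccl8, Pf4 and C1qc (376, 257 and 866 cells). Col16a1 stood at 102, 59.2 and 212 CPM in the cluster led by Cd207, Ltc4s and H2-M2 (256, 141 and 369 cells). The glial cluster of the same libraries had Col27a1 at 201, 214 and 210 CPM.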

How the results depend on the processing

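Of the 179 values of the fibroblast counts and summed ratios under other settings, 129 stayed within their limit, 48 moved and 2 turned direction. For alopecia over no alopecia, the 8 higher members became 5 by means over cells, 5 with a minimum of 50 UMIs and 4 without cluster 4, and the 2 lower ones became 1 with at most 5% mitochondrial UMIs, 1 with marker-based classes, 5 with a minimum of 1 UMI and 0 in the CD45-positive sort. For no alopecia over WT, the 5 higher became 0 in the CD45-positive sort and 2 with cluster 6 joined, and the 7 lower became 13 with a minimum of 1 UMI and 3 without cluster 4. For alopecia over WT, the 2 higher became 1 by means over cells, 1 with a minimum of 50 UMIs, 1 without cluster 2 and 5 without cluster 4, and the 4 lower became 2 with at most 5% mitochondrial UMIs, 10 with a minimum of 1 UMI and 1 without cluster 4. The causes were not tested, except that a lower minimum counts more members.

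The log2 ratio of summed collagen UMIs in fibroblasts was -0.11 for alopecia over no alopecia. It was -0.081 with at most 5% mitochondrial UMIs, -0.071 without doublet removal, -0.074 with marker-based classes, -0.13 with trimmed-mean scaling, -0.12 by means over cells, -0.18, -0.15 and -0.077 without cluster 2, 4 and 16, and turned to 0.078 in the CD45-positive sort and 0.0016 with cluster 6 joined. For no alopecia over WT the ratio of 0.52 became, in the same order, 0.48, 0.46, 0.44, 0.56, 0.54, 0.50, 0.54, 0.47, 0.15 and 0.36, and 0.53 and 0.50 with scaling without collagens or without mitochondrial and ribosomal genes. For alopecia over WT the ratio of 0.41 became 0.39 without a cell filter, without doublet removal and without mitochondrial and ribosomal genes, 0.36 with marker-based classes, 0.42 with trimmed-mean scaling, 0.32, 0.39 and 0.39 without cluster 2, 4 and 16, 0.23 in the CD45-positive sort and 0.36 with cluster 6 joined.

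Of 1064 values of single members, 947 stayed, 97 moved and 20 turned direction, and the causes were not tested. In fibroblasts, alopecia over no alopecia turned for Col6a6 with cluster 6 joined (-0.84), for Col17a1 in the CD45-positive sort (4.39) and for Col7a1 there (1.78) and with marker-based classes (0.040). No alopecia over WT turned for Col18a1 in the CD45-positive sort (-0.019). Alopecia over WT turned for Col14a1 in that sort (0.89) and without cluster 4 (1.65), for Col27a1 in that sort (0.035) and for Col12a1 with cluster 6 joined (0.62). In dermal papilla, Col1a2 turned with marker-based classes (0.15, alopecia over no alopecia), and Col17a1 without doublet removal (0.75) and with marker-based classes (0.62), both no alopecia over WT. In basal keratinocytes, where the fibril-forming members are in the free-RNA range, Col1a1 turned with at most 5% mitochondrial UMIs (0.66), without doublet removal (0.92) and at a doublet rate of 0.8% (0.94) for alopecia over no alopecia. For no alopecia over WT there, Col12a1 (-0.53), Col3a1 (0.37) and Col1a1 (0.042) turned with marker-based classes, and for alopecia over WT Col1a2 (0.25) and Col1a1 (0.91) without doublet removal.

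No paired analysis was possible because each group has 1 library per sort. Group, library, capture and mouse cannot be told apart, and intervals cover counting error only. Depth limits dermal papilla, mural cells and glia, which hold 23 to 57, 27 to 165 and 42 to 158 cells per library.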
